A study of Mus musculus with 12 samples.

Results

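The genes described here are the subunits of the transcription factor NF-kB and the inhibitors that act on it: Rela, Relb, Rel, Nfkb1 and Nfkb2, the IkB proteins Nfkbia and Nfkbie, the nuclear IkB proteins Bcl3 and Nfkbiz, and the deubiquitinating enzyme Tnfaip3 (A20). They were chosen by name, and all 10 are among the 14533 genes with counts. mRNA was sequenced from scraped, frozen dorsal epidermis of untreated C57BL/6 mice, 6 in each of 2 groups. The Pparg-/-epi mice carried floxed Pparg alleles (Pparg flox/flox) and a Cre recombinase driven by the keratin 14 promoter, and the WT mice carried the same floxed alleles without Cre. The WT group held 3 females and 3 males, the Pparg-/-epi group 4 females and 2 males, and both groups were 8 to 13 weeks old by the sample labels, which differ from the study's other records for some mice. The Pparg-/-epi skin was non-lesional.

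The model limits what the values can describe. The keratin 14 promoter is active in basal keratinocytes of the epidermis and of the hair follicle, so the deletion is not restricted to the interfollicular epidermis, and scraping reached the superficial dermis. Pparg itself had 5 to 269 counts per WT library and 16 to 107 per Pparg-/-epi library. These counts are summed over the whole gene, and the deleted allele still gives a transcript, so they do not check the genotype. Library totals ran from 10120840 to 16947632 counts for WT and from 11272135 to 18851255 for Pparg-/-epi mice. Keratinocyte markers summed to between 18250 and 44092 CPM (TMM-scaled counts relative to library size) for WT and between 29927 and 50357 CPM for Pparg-/-epi mice, with keratin gene Krt10 the most abundant. Replicate 2 of the WT group stood apart: it had the lowest keratinocyte sum and the highest sums of leukocyte markers, 309 CPM, and macrophage markers, 635 CPM. By chi-square per degree of freedom between the counts of 2 libraries, it lay nearest to Pparg-/-epi replicate 8 (62.5). Its nearest WT library was replicate 1 (99). The mouse names begin with 6 different numbers, of which 1 occurs in both groups, and 4 of the 6 WT mice share a number that no Pparg-/-epi mouse has, so effects of genotype and of leading number largely cannot be told apart. The names of Pparg-/-epi replicates 7 and 8 share their second number, but their leading numbers and labelled ages differ. Their counts differed beyond sampling noise (chi-square per degree of freedom 27.7, against 10.7 to 69.1 over the 15 pairs of that group). That value cannot tell separate mice from separate libraries of 1 mouse, and they were treated as separate mice by their labels.

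In resting cells NF-kB dimers are held in the cytoplasm by IkB proteins. Signals from TNF, interleukin-1 and Toll-like receptors activate the IkB kinase complex, which marks the inhibitors for destruction and frees Rela and Nfkb1 dimers, whereas a slower, non-canonical route through the kinase Map3k14 processes the Nfkb2 precursor to pair with Relb. Several inhibitors are themselves NF-kB targets and so close a negative feedback loop, while Bcl3 and Nfkbiz act in the nucleus, bound to NF-kB dimers on DNA, and can raise transcription of selected genes. In keratinocytes this pathway is known for inducing chemokines, alarmins and antimicrobial proteins.

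Because several of these genes are known NF-kB targets, their promoters were searched for the kappaB consensus, the binding sequence of NF-kB. The RefSeq promoter table (GRCm38.p6, the build of the count table) held 7 of the 10 genes, and Nfkb1, Relb and Nfkbiz had no entry. The 10 windows of these 7 genes ran from 250 bases before to 50 bases after a start site. A match to the consensus on either strand was present in 8 of the 10 windows and in 6 of the 7 genes, all but Rela, whereas 4.5% of all 32817 promoters of the same length held one. The windows are not independent. The Nfkb2 windows starting at chr19:46305445 and chr19:46305680 overlap and share a match, which was counted in each. The match nearest to the start site of each gene's first window is shown 5′ to 3′ on the strand of the gene, with the matched bases in capitals, because these genes' levels are compared next.
Bcl3, chr7:19822734-19822763, minus strand: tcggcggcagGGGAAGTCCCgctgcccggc
Nfkb2, chr19:46304716-46304745, plus strand: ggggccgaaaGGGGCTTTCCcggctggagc
Rel, chr11:23771041-23771070, minus strand: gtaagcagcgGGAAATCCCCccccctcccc
Nfkbia, chr12:55492657-55492686, minus strand: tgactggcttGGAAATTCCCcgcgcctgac
Nfkbie, chr17:45555584-45555613, plus strand: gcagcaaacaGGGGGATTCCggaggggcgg
Tnfaip3, chr10:19015403-19015432, minus strand: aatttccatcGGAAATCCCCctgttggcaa

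The match in Bcl3 was centred 7 bases after the start site, those in Nfkb2, Tnfaip3 and Nfkbia within 24 bases before it, and those in Rel and Nfkbie 86 and 101 bases before it. The AP-1 sequence TGANTCA was found in 3 of the 10 windows, in Nfkb2, Nfkbie and Tnfaip3, against 7.81% of all promoters. The nuclear receptor element AGGTCA, part of the site to which PPARG binds with its partner, was found in 0 of the 10 windows, against 16.3% of all promoters. All 3 motifs were searched on both strands, no match to one motif overlapped a match to another, and in Rel and Nfkb2 a match on each strand shifted by a single base was counted separately. These matches are descriptions of the sequence, and no binding was measured.

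Of the 10 genes, Bcl3, Nfkb2 and Nfkbiz were higher in Pparg-/-epi mice and none was lower. A gene was called altered where edgeR's quasi-likelihood test gave an adjusted p under 0.05 and the log2 fold change was 0.6 or more in size. Over all genes tested 10.3% were altered, 5.19% higher and 5.08% lower. Bcl3 stood apart by size, with a mean 3.75 times that in WT, while Nfkb2 and Nfkbiz rose 1.55-fold and 1.54-fold. For 9 of the 10 genes the log2 fold change was above 0, against 48.5% of all genes, and its median was 0.43, against -0.01 over all genes. In bulk tissue, a change in the number of cells of a type and a change in the RNA of each cell cannot be told apart.

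**Figure D1:**
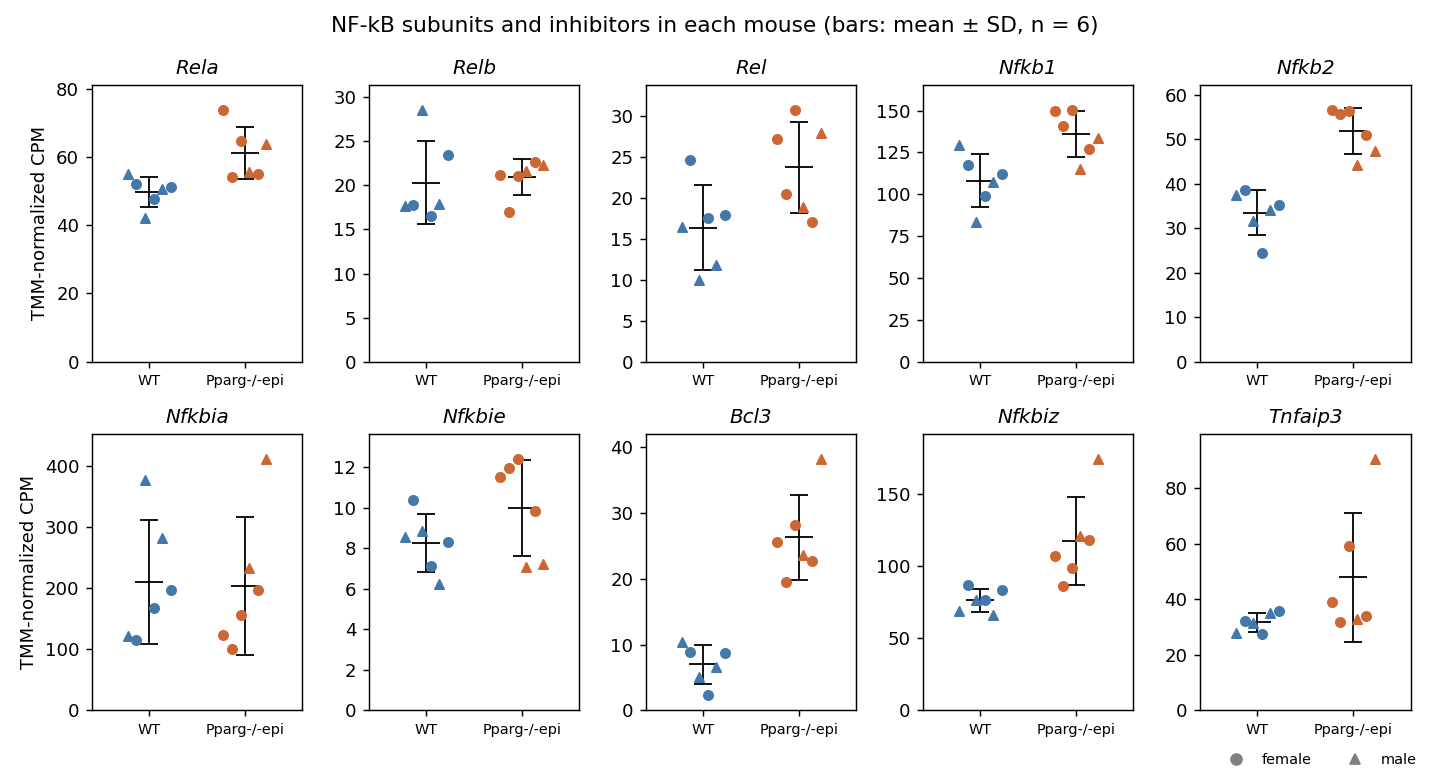
TMM-normalized CPM of the 10 genes in each of 12 mice, with circles for females, triangles for males and bars for the mean ± SD of 6 mice. The Pparg-/-epi values of Bcl3 (19.6 to 38.2) and Nfkb2 (44.2 to 56.6) lie above all WT values, whereas Nfkbia spans 100.3 to 412 in Pparg-/-epi mice and 115 to 378 in WT mice.

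Among the subunits, Nfkb2 changed. It encodes the precursor of the DNA-binding subunit of the non-canonical route. Its level was 24.4 CPM in the lowest, 34.7 in the median and 38.5 in the highest WT mouse, and 44.2, 53.4 and 56.6 CPM in the Pparg-/-epi mice. The groups did not overlap, as for 7.9% of all genes (3.95% with Pparg-/-epi higher). The log2 fold change was 0.63 (SE 0.11, 95% interval 0.37 to 0.88, adjusted p = 0.00341). That size sits just above the limit of 0.6, and in 4 of the 12 fits that left out 1 mouse it fell below the limit, to 0.55 at the lowest without WT replicate 4, while the adjusted p remained under 0.05 in all 12. With RNA integrity number (RIN) as a covariate the log2 fold change was 0.59 (adjusted p = 0.00571). The counted span of Nfkb2 overlaps Psd on the opposite strand.

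Relb, the usual partner of processed Nfkb2, did not pass the test. It had 16.5, 17.8 and 28.6 CPM in the lowest, median and highest WT mouse and 17.0, 21.4 and 22.7 CPM in the Pparg-/-epi mice, so the WT range enclosed every Pparg-/-epi value. Its log2 fold change was 0.05 (SE 0.14, 95% interval -0.27 to 0.37, adjusted p = 0.863). An increase as large as the estimate for Nfkb2 lies outside that interval. The difference between the 2 genes' changes was not tested.

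The canonical subunits had smaller differences. Rela, which carries the transactivation domain of the most abundant dimer, had 41.98, 50.9 and 54.9 CPM in WT mice and 54.2, 59.6 and 73.7 CPM in Pparg-/-epi mice, and 5 of 6 Pparg-/-epi mice lay above every WT mouse. Its log2 fold change was 0.30 (SE 0.10, adjusted p = 0.0538). Nfkb1, the precursor of its DNA-binding partner, had 83.2, 109.7 and 129 CPM in WT mice and 115, 137 and 150.4 CPM in Pparg-/-epi mice, with 4 of 6 Pparg-/-epi mice above every WT mouse. Its log2 fold change was 0.33 (SE 0.11, adjusted p = 0.0549). Both missed the p threshold narrowly, and both passed it by DESeq2 at a size under 0.6. By the likelihood ratio test the adjusted p was 0.09 for Rela and 0.0657 for Nfkb1. With 1 mouse left out, Rela passed the p threshold in 0 of 12 fits and Nfkb1 in 3. Without the 4 WT mice that share a leading number, Rela was 0.21 (adjusted p = 0.459) and Nfkb1 0.15 (adjusted p = 0.547).

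Rel, a subunit used mainly by leukocytes, varied more between mice. It had 9.91, 17.0 and 24.6 CPM in WT mice and 17.1, 23.8 and 30.7 CPM in Pparg-/-epi mice, and only 3 of 6 Pparg-/-epi mice exceeded all WT mice. Rel differed by 0.53 on the log2 scale (SE 0.22, adjusted p = 0.124). The highest WT value belonged to replicate 2, the library with the highest leukocyte marker sum. Without that mouse Rel was altered, with a log2 fold change of 0.67 (adjusted p = 0.0322), and the count of altered genes among the 10 was 4, against 15.5% of all genes in that fit.

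**Figure D2:**
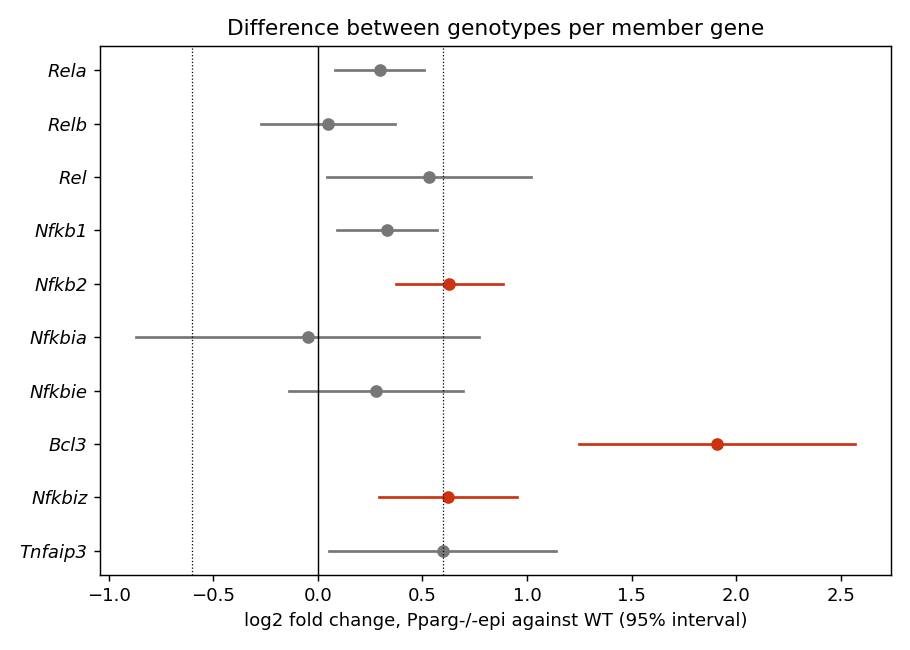
Log2 fold change of Pparg-/-epi against WT for each gene (points) with its 95% interval (lines), red where the gene was altered, with dotted lines at the fold limits of 0.6 in each direction. The Bcl3 interval (1.25 to 2.57) lies above the limit over its whole length, while the points of Nfkb2 (0.63), Nfkbiz (0.62) and Tnfaip3 (0.60) sit on it.

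The cytoplasmic inhibitors gave no call. Nfkbia encodes IkB alpha, the inhibitor that is degraded and rapidly resynthesized in each round of canonical signalling. Its level was 115, 183 and 378 CPM in the lowest, median and highest WT mouse and 100.3, 176 and 412 CPM in the Pparg-/-epi mice. The groups overlapped almost entirely. Its log2 fold change was -0.05 (SE 0.37), and the 95% interval from -0.87 to 0.77 leaves changes of either sign within reach (adjusted p = 0.951). The coefficient of variation between mice was 48.5% in WT and 55.5% in Pparg-/-epi mice, the widest of the 10 genes in both groups.

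Nfkbia was also compared with RNA quality and sex. Its log2 CPM had a negative correlation with RIN over the 12 mice (Pearson's r = -0.68, permutation p = 0.0184, adjusted over the 10 genes 0.092; Spearman's rho = -0.68, permutation p = 0.0171, adjusted 0.0875). Without 2 of the mice farthest from the median RIN, of which some tied, r was -0.70. It was -0.86 within WT and -0.55 within Pparg-/-epi mice. None of the 10 genes passed the adjusted threshold for this relation. Rel had an r of the same size and opposite sign, 0.68 (permutation p = 0.0145, adjusted 0.092). The median RIN was 6.65 in WT and 7.7 in Pparg-/-epi mice (exact permutation p of the difference in means = 0.31). With RIN as a covariate the log2 fold change of Rel was 0.40 (quasi-likelihood test, adjusted p = 0.166). The difference of males from females in Nfkbia was 0.92 on the log2 scale (SE 0.28) in a fit with genotype and sex, and it missed the threshold over all genes (adjusted p = 0.279). Both Pparg-/-epi males exceeded all 4 Pparg-/-epi females, and 2 of 3 WT males exceeded all WT females. With RIN as a covariate the genotype difference of Nfkbia was 0.35 in log2 units at an adjusted p of 0.465. With sex as a covariate it was 0.04 (adjusted p = 0.952).

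Nfkbie, which encodes IkB epsilon, an inhibitor with slower kinetics, had 6.24, 8.44 and 10.4 CPM in WT mice and 7.07, 10.7 and 12.4 CPM in Pparg-/-epi mice. The groups overlapped, with 3 of 6 Pparg-/-epi mice above every WT mouse. Its log2 fold change was 0.28 (SE 0.19, adjusted p = 0.351). Both Pparg-/-epi males, at 7.07 and 7.21 CPM, lay below the WT median, and all 4 Pparg-/-epi females lay above it.

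The genes of both nuclear IkB proteins rose. Bcl3, which binds homodimers of the Nfkb1 and Nfkb2 products and can turn them from repressors into activators, had 2.42, 7.62 and 10.4 CPM in the lowest, median and highest WT mouse and 19.6, 24.6 and 38.2 CPM in the Pparg-/-epi mice. The lowest Pparg-/-epi mouse was thus above the highest WT mouse by a wide margin. The lowest count behind these values was 36, in WT replicate 4. Bcl3 rose by 1.91 on the log2 scale (SE 0.30, 95% interval 1.25 to 2.57, adjusted p = 0.00134, rank 245 among 14533 genes by adjusted p). Bcl3 was altered in all 12 fits that left out 1 mouse, with log2 fold changes of 1.73 to 2.03. Among the other alternatives it lost its call only in the 7 females alone, where the log2 fold change was 1.84 and the adjusted p 0.0525.

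Nfkbiz encodes IkB zeta, which interleukin-1 and interleukin-17 induce in keratinocytes and which drives antimicrobial genes there. It had 66.0, 76.5 and 87.2 CPM in WT mice and 86.6, 112.5 and 175 CPM in Pparg-/-epi mice. The groups overlapped by a single pair, since the lowest Pparg-/-epi mouse fell just short of the highest WT mouse. The log2 fold change was 0.62 (SE 0.15, 95% interval 0.29 to 0.95, adjusted p = 0.0143). It fell below the fold limit in 3 of the 12 fits that left out 1 mouse, to 0.48 without Pparg-/-epi replicate 12, with an adjusted p under 0.05 in all 12. Limma voom gave 0.60, just under the limit, at an adjusted p of 0.0149. The counted span overlaps BC002163 on the opposite strand.

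Tnfaip3, the A20 enzyme that removes ubiquitin chains upstream of the IkB kinases and is itself an NF-kB target, did not pass. Its level was 27.4, 32.0 and 35.9 CPM in WT mice and 32.0, 36.6 and 90.7 CPM in Pparg-/-epi mice. Only 3 of 6 Pparg-/-epi mice exceeded all WT mice, and the highest exceeded the others by far. It differed by 0.60 on the log2 scale (SE 0.24, adjusted p = 0.120), and without Pparg-/-epi replicate 12, the highest mouse, it was 0.32. The coefficient of variation was 48.4% in Pparg-/-epi mice and 11.0% in WT mice. Mir684-1 overlaps Tnfaip3 on the opposite strand.

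**Figure D3:**
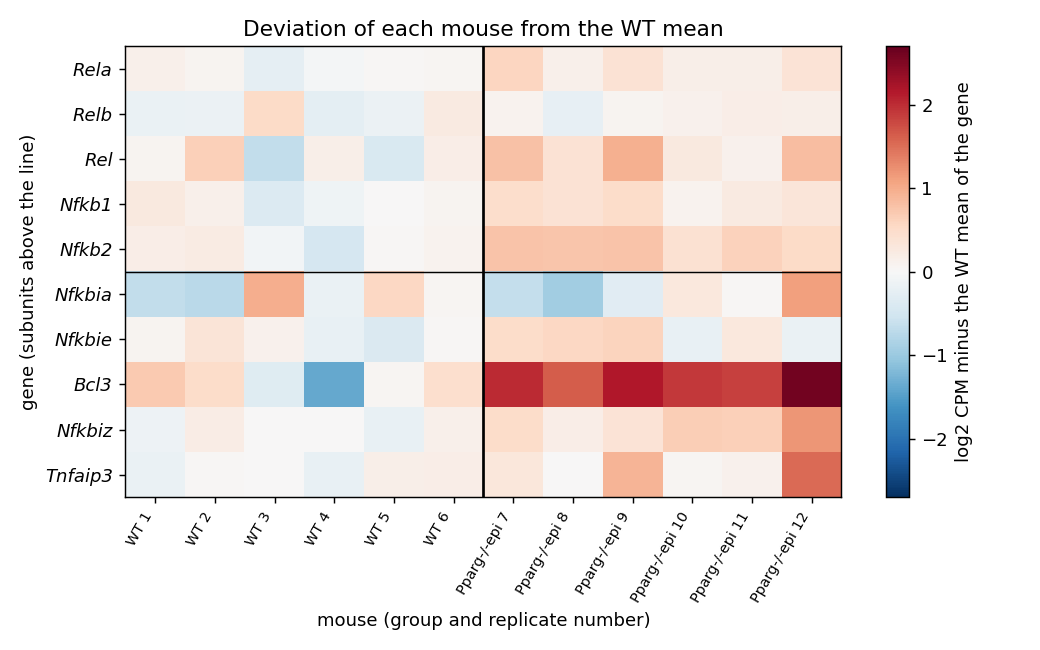
Log2 CPM of each gene (rows) in each mouse (columns) minus the gene's WT mean, from blue (below) to red (above). The Bcl3 row is red in all 6 Pparg-/-epi mice (1.63 to 2.60), and replicate 12 of that group is also high in Tnfaip3 (1.52), Nfkbiz (1.20) and Nfkbia (1.10).

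Pparg-/-epi replicate 12 had the highest value of its group for 4 of the 5 inhibitors, Nfkbia, Bcl3, Nfkbiz and Tnfaip3, and for 0 of the 5 subunits. Pparg-/-epi replicate 8 had the lowest value of its group for the same 4 inhibitors and for 2 of the 5 subunits, Rela and Relb. Nfkbia was above its WT mean by 1.10 on the log2 scale in replicate 12 and below it by -0.94 in replicate 8, a spread that crossed the whole WT range, whereas Bcl3 was above its WT mean in both, by 2.60 and 1.63. Replicate 12 was male with a RIN of 7.1, and replicate 8 was female with a RIN of 8.5. The part of sex and RNA quality in these differences was not tested.

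Levels of different genes were compared per length, as RPKM (CPM per kilobase of the gene's counted length). In WT mice Nfkbia was the most abundant of the 10, at 133 ± 64.7 RPKM (SD, n = 6), followed by Nfkb1 at 26.3 ± 3.85, Nfkbiz at 19.7 ± 2.10 and Rela at 18.4 ± 1.64. Nfkbia lay above Nfkb1 in 6 of 6 WT mice and Nfkb1 above Nfkbiz in 6 of 6, but Nfkbiz above Rela in only 4 of 6. Below these came Nfkb2 at 10.2 ± 1.55, Relb at 9.24 ± 2.15, Tnfaip3 at 6.91 ± 0.762 and Rel at 6.33 ± 2.00 RPKM. The order of Nfkb2 and Relb held in 4 of 6 WT mice and that of Tnfaip3 and Rel in 3 of 6, so these neighbours did not separate. Bcl3, at 3.80 ± 1.59 RPKM, and Nfkbie, at 3.38 ± 0.591, were the lowest, and their order held in 4 of 6.

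In Pparg-/-epi mice Bcl3 moved from the ninth place to the sixth, at 14.3 ± 3.54 RPKM (SD, n = 6), above Tnfaip3, Relb and Rel. It lay above Tnfaip3, the next gene, in 6 of 6 mice, and below Nfkb2, at 15.8 ± 1.59 RPKM, in 5 of 6. Relb, at 9.54 ± 0.927, and Rel, at 9.17 ± 2.16, did not separate from each other beyond their spread. Nfkbie was last in both groups.

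Shares within the family give the same levels relative to one another. Bcl3 made up 1.01 to 5.42% (mean 2.82%) of the summed RPKM of Nfkbia, Nfkbie, Bcl3 and Nfkbiz in WT mice and 6.31 to 11.2% (mean 8.74%) in Pparg-/-epi mice. Nfkbia, the cytoplasmic inhibitor, held between 69.8 and 90.1% in WT mice and between 62.6 and 79.1% in Pparg-/-epi mice, and these ranges overlapped. Of the summed RPKM of the 5 subunits, Nfkb2 held between 11.7 and 15.4% in WT mice and between 15.7 and 19.5% in Pparg-/-epi mice, again without overlap, while the Nfkb1 share was 37.2 ± 2.65% and 36.7 ± 1.46%. Such shares were not tested.

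**Figure D4:**
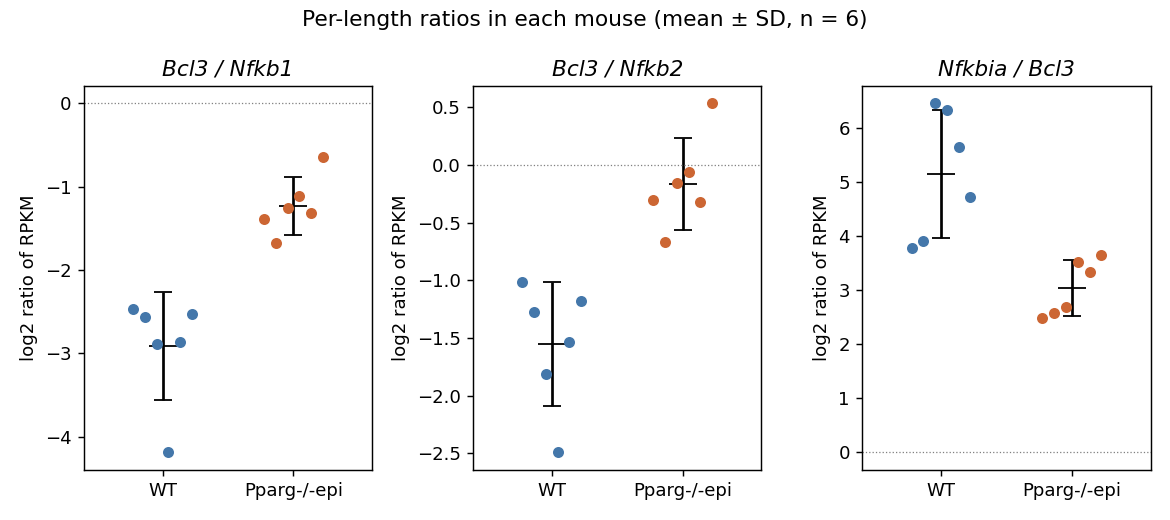
Log2 ratios of RPKM between 2 genes in each mouse, with the mean ± SD of 6 mice and a dotted line where both genes are equal. The WT and Pparg-/-epi groups do not overlap in any of the 3 ratios, and Bcl3 nears Nfkb2 in Pparg-/-epi mice, with a mean log2 ratio of -0.16.

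The ratio of Bcl3 to the subunits it binds is shown in the plot of log2 ratios. The log2 ratio of Bcl3 to Nfkb1 was -2.92 ± 0.65 in WT and -1.23 ± 0.34 in Pparg-/-epi mice (SD, n = 6), and that of Bcl3 to Nfkb2 was -1.55 ± 0.54 and -0.16 ± 0.40. Bcl3 therefore gained on both subunits, including the one that itself rose. The log2 ratio of Nfkbia to Bcl3 fell from 5.14 ± 1.18 to 3.04 ± 0.52, without overlap. The ratio of Nfkb2 to Nfkb1 overlapped between groups, at -1.37 ± 0.21 and -1.07 ± 0.07. Ratios that hold Bcl3 carry its own change, and they are given as descriptions.

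The sexes were compared because the groups hold them in unequal numbers. By the quasi-likelihood test of the sex by genotype interaction, 0 of the 10 genes passed after adjustment over all genes, as did 0 of 14533 genes, and the likelihood ratio test also gave 0 of the 10. At an unadjusted p under 0.05 there was 1 of the 10, Nfkbiz, and 741 of all genes. The log2 fold change of Nfkbiz was 0.31 in females and 1.05 in males (interaction adjusted p = 0.895). That of Bcl3 was 1.84 in females and 2.05 in males, and that of Nfkb2 0.74 and 0.40. With 3 WT and 2 Pparg-/-epi males, the fit within males called none of the 10, at adjusted p from 0.103 for Nfkbiz to 0.971 for Relb.

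Bcl3 and Relb lie on chromosome 7 (mm10), on the same strand, with 179023 bases between them. Bcl3 spans chr7:19808462-19822755 and Relb chr7:19606222-19629438. The table lists 7 genes between them, Clptm1, Apoc1, Apoe, Tomm40, Pvrl2, Bcam and Cblc, of which 0 were altered by the quasi-likelihood test, with 3 at an unadjusted p under 0.05 (Apoc1, Tomm40 and Bcam). The largest log2 fold change among them was 0.58, for the apolipoprotein gene Apoc1 (adjusted p = 0.0702). The nearest gene to Bcl3, the ubiquitin ligase gene Cblc, had 22.6 ± 4.40 CPM in WT and 21.1 ± 3.24 in Pparg-/-epi mice (SD, n = 6).

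The genes most like Bcl3 were found by the root-mean-square difference of log2 CPM profiles over the 12 mice, each centred on its mean. They were Spire2 (0.36), an actin nucleator, Krt7 (0.38), a keratin of simple and glandular epithelia, Nod2 (0.38), a cytoplasmic sensor of bacterial cell wall fragments, Abhd12b (0.38) and Krt17 (0.40), a keratin of hair follicles and of stressed epidermis. Krt17 rose from 791 ± 390 to 2740.4 ± 508 CPM and Nod2 from 11.9 ± 3.30 to 33.3 ± 11.8 CPM (SD, n = 6). These 5 genes were picked for this likeness, so their differences are no test of it.

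Other genes of the pathway were described by role. Of 117 genes listed, 103 had counts, of which 25 were higher and 4 were lower, or 28.2% against 10.3% of all genes, with a median log2 fold change of 0.26. These lists were chosen with earlier results of these data known, so their shares and medians are descriptions and no test of the pathway. Medians of the adaptors and kinases, which carry the signal from receptors to IkB proteins, lay near 0. Of 23 adaptors, 1 was higher and 1 lower, with a median of -0.04, and of 8 kinases 2 were higher, with a median of 0.05.

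**Figure D5:**
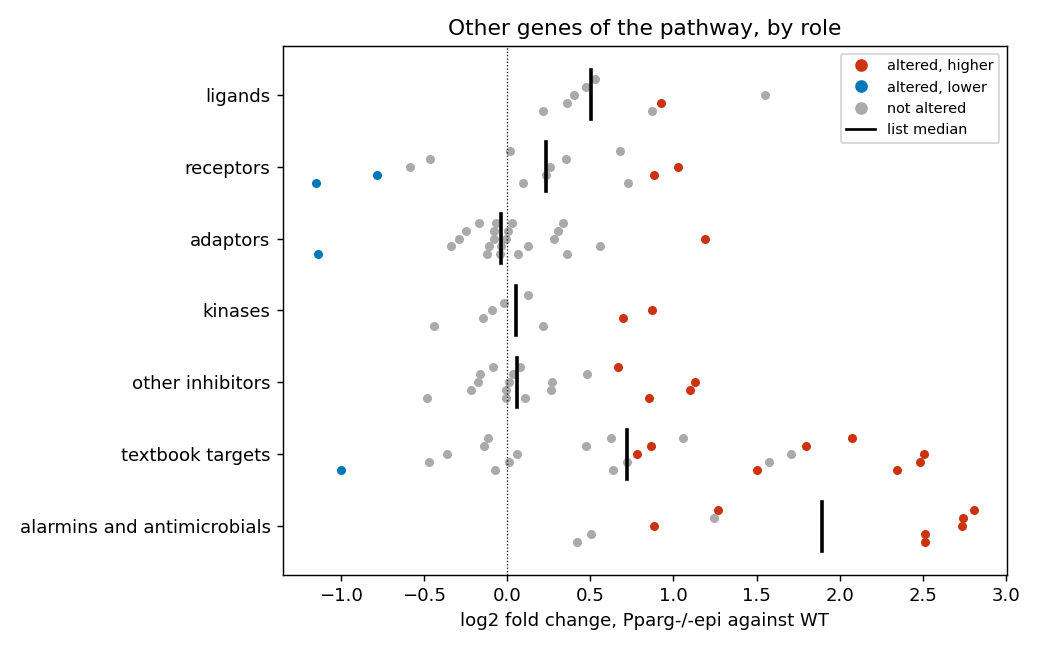
Log2 fold change of each counted pathway gene (points) by role, red where altered and higher, blue where altered and lower, with a line at each list's median. The medians of adaptors (-0.04), kinases (0.05) and other inhibitors (0.06) lie near 0, and those of textbook targets (0.72) and alarmins and antimicrobials (1.89) lie to the right.

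Among the kinases, Map3k14, the NF-kB-inducing kinase that triggers processing of Nfkb2, rose from 17.1 ± 6.61 to 31.4 ± 5.19 CPM (log2 fold change 0.87, SE 0.23, adjusted p = 0.0216). It lost its call in 4 of the 12 fits that left out 1 mouse and with earlier and later mouse-name numbers as blocks (adjusted p = 0.0541). Map3k8, which binds the Nfkb1 precursor, rose from 20.9 ± 3.74 to 33.9 ± 5.96 CPM (0.69, SE 0.15, adjusted p = 0.00792). The 3 subunits of the IkB kinase complex, of which Chuk and Ikbkg are named here after their values were seen, had log2 fold changes of -0.15 for Chuk, -0.02 for Ikbkb and -0.09 for Ikbkg, and did not pass. Map3k7, an upstream kinase, had 0.12 and did not pass.

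Of the adaptors, Traf1, a known NF-kB target, rose with a log2 fold change of 1.19 (adjusted p = 0.00647), and Traf5 fell with -1.14 (adjusted p = 0.000345). Traf5 had 26.7 ± 3.94 CPM in WT and 12.1 ± 2.06 in Pparg-/-epi mice. Tab2 and Traf6, the most abundant unaltered adaptors, had -0.08 and 0.03. Without WT replicate 2, and likewise without Pparg-/-epi replicate 12, 2 adaptors were higher and 1 lower. In the former fit 15.5% of all genes were altered.

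Ligands and receptors changed in part. Of 8 ligands counted, Tnf was altered (from 2.91 ± 0.809 to 5.55 ± 2.18 CPM, log2 fold change 0.92, adjusted p = 0.0381), and that call held in 4 of 12 fits that left out 1 mouse. The altered share was 12.5% of the ligands, against 10.3% of all genes. The most abundant ligands that did not pass were Il1a (0.48) and Tnfsf12 (0.22). Of 13 receptors, Tnfrsf12a (1.03), the receptor for TWEAK, and Tnfrsf1b (0.88), a TNF receptor, were higher, and Tnfrsf13c (-1.15), a BAFF receptor, and Il18r1 (-0.78), an interleukin-18 receptor chain, were lower. The altered share was 30.8% of the receptors, against 10.3% of all genes. The Tnfrsf1b call held in 3 of the 12 fits that left out 1 mouse and was lost with the name-number blocks (adjusted p = 0.091). Tnfrsf13c lost its call with RIN as a covariate (-0.94, adjusted p = 0.0605). Without the 4 WT mice that share a leading number, none of these receptors was altered. Tnfrsf12a was then 0.91 (adjusted p = 0.272), Tnfrsf1b 0.39 (0.445), Tnfrsf13c -0.79 (0.273) and Il18r1 -0.20 (0.428). Without WT replicate 2, 3 ligands were higher and 0 lower, and 3 receptors were higher and 3 lower. In that fit 15.5% of all genes were altered. Without WT replicate 6, and likewise without Pparg-/-epi replicate 7, 1 receptor was higher and 1 lower. Tnfrsf1a (0.26) did not pass, and Il1rap (-0.46) passed the p threshold but not the fold limit.

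Of 18 other inhibitors of the pathway, 22.2% were altered against 10.3% of all genes, with 4 higher and 0 lower. They were Irak3, an inactive kinase that restrains Toll-like receptor signalling (26.1 ± 5.70 to 56.2 ± 4.94 CPM, log2 fold change 1.10, adjusted p = 0.000356), Zc3h12a, an RNase that degrades inflammatory mRNAs (38.2 ± 6.53 to 83.7 ± 14.2 CPM, 1.13, adjusted p = 0.000451), Tnip1, a partner of Tnfaip3 (0.66, adjusted p = 0.00765, but 0.57 and under the fold limit with the name-number blocks), and Nfkbid, a further nuclear IkB protein (0.85, adjusted p = 0.0323). The nuclear IkB genes Bcl3, Nfkbiz and Nfkbid were thus higher, whereas the IkB-like gene Nfkbil1, also on this list, did not pass (-0.09, adjusted p = 0.784). Nfkbid lost its call in 9 of the 12 fits that left out 1 mouse. The count was 2 of 18 without Pparg-/-epi replicate 7 and 5 of 18 without WT replicate 2. In the latter fit 15.5% of all genes were altered. Tax1bp1 and Rnf11, the most abundant of the rest, had -0.01 and 0.27 and did not pass.

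Of 31 textbook NF-kB targets listed, 23 had counts, and Sele, Ccl5, Cxcl1, Cxcl2, Cxcl5, Il6, Csf2 and Bcl2a1a had no row. A gene needed 0.5 CPM in only 6 mice, so it could enter through the Pparg-/-epi mice alone. Of the 23, 8 were higher and 1 was lower, or 39.1% against 10.3% of all genes, with a median log2 fold change of 0.72. Without WT replicate 2 there were 12 higher and 1 lower, with a median of 0.83, against 15.5% of all genes altered in that fit. Higher with all mice were Ier3 (1.50), an early response gene, Tnfaip2 (0.86) and the chemokine Ccl2 (2.48), as well as the adhesion gene Icam1 (0.78) and the chemokines Cxcl10 (2.07) and Ccl20 (1.80). The Ccl20 call held in 2 of the 12 fits that left out 1 mouse. Without WT replicate 2 the log2 fold changes of Ccl2 and Ccl20 were 3.24 and 2.46. Bcl2a1b (2.50) and Bcl2a1d (2.34), survival genes with near-identical copies between which reads can be split, were also higher, from under 1 CPM in the WT mean. Mmp9, a matrix protease, fell from 30.4 ± 7.81 to 15.2 ± 2.22 CPM. In the fit without the 4 WT mice that share a leading number, only Bcl2a1b and Bcl2a1d of these altered targets kept their call. There Ccl2 was 1.49 (adjusted p = 0.116), Ccl20 1.135 (adjusted p = 0.422) and Cxcl10 2.26 (adjusted p = 0.187). That fit holds fewer mice. Of the abundant targets, Ccnd1 (0.01) did not pass, and the survival gene Bcl2l1 (-0.47, adjusted p = 0.00175) was lower in Pparg-/-epi mice without overlap but missed the fold limit. Of 14 alarmin and antimicrobial genes listed, 10 had counts, and Defb3, Defb4, Camp and Saa3 had no row. Of the 10, 7 were higher and 0 lower, or 70% against 10.3% of all genes. Among the 7 were S100a8 (2.74), S100a9 (2.74), Lcn2 (2.81), Slpi (2.51), Defb6 (2.51) and Il1f9 (0.88), while Defb1 (0.50) and Defb14 (1.24) did not pass. Without WT replicate 2 the log2 fold changes of Defb6 and Lcn2 were both 3.40, and without WT replicate 3 those of S100a9 and Slpi were 3.41 and 3.17. In the fit without the 4 WT mice, Lcn2 (1.915, adjusted p = 0.208) and Defb6 (1.374, adjusted p = 0.0756) were not altered. Il1f9 (0.97, adjusted p = 0.16) and Pglyrp1 (0.87, adjusted p = 0.275), also among the 7, lost their call too. S100a8, S100a9 and Slpi kept theirs. The lowest count in a WT library was 2 for Lcn2, 5 for Ccl2 and 6 for Slpi.

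Cell type markers were summed in each mouse and compared by exact permutation test, two-sided, for 13 lists with counted genes. By this exact permutation test 3 differed (each p = 0.00216, the smallest that 6 against 6 mice allow, adjusted over the lists 0.00938). Mast cell markers, 5 of 5 altered, summed to between 19.3 and 90.2 CPM in WT mice and between 129 and 229 CPM in Pparg-/-epi mice. Of 7 neutrophil markers, 2 had counts, Csf3r and Cxcr2, and only 1 of these was altered. Both together summed to 0.944 to 4.92 and 9.71 to 17.0 CPM. Mean Cxcr2 alone rose from 0.910 (WT) to 10.6 CPM (Pparg-/-epi), so the rise of this sum came mostly from 1 gene. The defining markers Ly6g, Mpo, Elane, Ngp and Retnlg had no row. Sebaceous gland markers, 5 of 6 counted and all 5 lower, summed to between 18.1 and 919 CPM in WT mice and between 2.08 and 4.88 CPM in Pparg-/-epi mice. The study had already reported these 5 genes as reduced in the same mice, so the p of this list is no independent test. It had also reported Csf3r and Cxcr2 as raised in these mice, so the p of the neutrophil list is no independent test either. These sums moved with the rise of Bcl3, Nfkb2 and Nfkbiz, and their part in it was not tested.

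The remaining leukocyte lists overlapped between the groups. The summed markers of all leukocytes lay between 122 and 309 CPM in WT mice and between 178 and 222 CPM in Pparg-/-epi mice (exact permutation p = 0.552). Macrophage markers ranged from 95.9 to 635 and 194 to 381 CPM (exact permutation p = 0.807), T cell markers from 146 to 258 and 181 to 243 CPM (exact permutation p = 0.405), and Langerhans and dendritic cell markers from 1174 to 2871.7 and 1465 to 1726 CPM (exact permutation p = 0.920). Of 5 B cell markers, 0 had a row. Endothelial markers, at 7.55 to 128 and 30.7 to 190.3 CPM, fibroblast markers, at 1014 to 34533 and 5324 to 11169 CPM, adipocyte markers, at 2.01 to 110 and 4.49 to 33.2 CPM, skeletal muscle markers, at 5.01 to 7984 and 1.58 to 298 CPM, and melanocyte markers, at 3.52 to 38.0 and 10.5 to 166 CPM, also overlapped. The widest spreads, fibroblast and muscle in WT mice, came from WT replicates 1 and 5. Bcl3 remained altered without either, as it did without WT replicate 2.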

How the data were processed

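mRNA libraries (KAPA mRNA HyperPrep) from 12 mice were sequenced and, per the submitters' processing notes, involved STAR 2.5.2b, featureCounts of Subread 1.5.1 and mm10. The authors deposited counts per gene, not normalized. Whether counting used strand is not given in the sources used here. Of 17333 rows, 2800 without a gene name were dropped, and 14533 genes remained, each above 0.5 CPM in at least 6 mice. Libraries were matched to mice by library number and mouse name, for 2 of them through the study's supplementary run sheet. No 2 libraries held the same counts.

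Counts were scaled by TMM and compared by edgeR 4.0.16 (R 4.3.3) with the quasi-likelihood test and genotype as the only term, with Benjamini-Hochberg adjustment over all 14533 genes. The limits for an altered gene, 0.6 in log2 fold change and 0.05 in adjusted p, are those of the study's methods. SEs are the log2 fold change over the square root of F. The likelihood ratio test of the study's methods, DESeq2 1.42.0 and limma voom 3.58.1 were alternatives, as were other scalings, a mean of at least 20 counts, covariates and fewer mice. RPKM used the gene lengths in the table. Permutation p for RIN came from 100000 draws. The tests were checked on simulated data. Figures used matplotlib 3.10.9.

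At these depths 3 counts correspond to 0.156 to 0.320 CPM, and the 10 genes had 36 to 4799 counts per library. The labels describe each library as a mouse of its own. Named were all 10 genes, in each pathway list up to 6 altered genes of smallest adjusted p and the 2 unaltered genes of highest mean CPM, the genes between Bcl3 and Relb, the 5 genes most like Bcl3 and the top marker of a list. Other names were added after values were seen, among them Icam1, Cxcl10, Ccl20, Chuk and Ikbkg. The genes and lists were chosen with earlier results of these data known. The sex term, the relation to RIN and a split by mouse-name number were added after the data were seen.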

Additional observations from a re-analysis of the deposited data

Results flagged for a closer look

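In 78 sets of 6 mice (the 10 genes and 29 altered pathway genes in each group), 12 held a mouse whose gap to its nearest neighbour was a large part of the range by Dixon's test at the 95% level. Chance flags about 1 in 20 sets. Of the 10 NF-kB genes, 1 was so marked: Relb in Pparg-/-epi replicate 8, at 17.0 CPM, below the next mouse at 21.0. Pparg-/-epi replicate 12 was far above its group in Tnf (9.71 CPM), Ccl20 (19.5 CPM) and Ier3 (70.9 CPM). WT replicate 2 was far above its group in Traf1 (7.43 CPM), Tnip1 (59.2 CPM), Ccl2 (4.35 CPM) and Defb6 (245 CPM). Pparg-/-epi replicate 9 was high in Cxcl10 (32.3 CPM) and S100a8 (19.9 CPM), WT replicate 3 low in Zc3h12a (25.8 CPM) and WT replicate 1 low in Mmp9 (15.8 CPM).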

How the results depend on the processing

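No paired analysis was possible because the groups share no replicate number and only 1 leading number in the mouse names. Of the 10 genes, 3 were altered, and leaving out 1 mouse at a time gave 2 to 4, with 22 to 39 pathway genes and 1116 to 2249 of all genes (2249 without WT replicate 2), and 2 to 3 of the marker lists. In the 7 females alone 1 of the 10 (Nfkb2), 9 pathway genes and 651 of all genes were altered. Without the 4 WT mice that share a leading number in their names, 1 of the 10 (Bcl3), 8 pathway genes and 389 of all genes were altered. Both fits hold fewer mice. Nfkb2 fell below the fold limit with RIN as a covariate (0.59) and with earlier and later name numbers as blocks, added after the data were seen (0.55), and it missed both limits without the 4 WT mice (0.46, adjusted p = 0.101). Nfkbiz fell below the fold limit with limma voom (0.60), missed both limits in females (0.31, adjusted p = 0.19) and missed only the p threshold without the 4 WT mice (0.61, adjusted p = 0.232). The sign of Nfkbia turned with sex (0.036) or RIN (0.35) as a covariate, without the 4 WT mice (0.80) and with the blocks (0.23), and ranged from -0.38 to 0.20 with 1 mouse left out. That of Relb, near 0, ranged from -0.0046 to 0.17. The causes were not tested. Total counts in place of TMM gave 654 higher and 739 lower genes against 754 and 739, and the median over all genes lay between -0.0114 and -0.00789 under the 3 scalings run.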
